A study of Caenorhabditis elegans with 59 samples.

Results

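The miRNAs mir-70, mir-77 and mir-799 of Caenorhabditis elegans were lower in L2 larvae that lacked ebax-1. They are 3 guide strands of the 180 guide strands, and of the 310 strands in all, in the miRNA count table. They were selected on the difference between ebax-1(tm2321) and wild-type L2 larvae, so their L2 values are a description, and no test below is of a difference in L2 larvae. The mir-70 hairpin (WBGene00003298) lies at V:6665536-6665635 on the minus strand in WBcel235, within an intron of pmp-5 on the same strand. The mir-77 hairpin (WBGene00003305) lies at II:12519268-12519367 on the plus strand, and the mir-799 hairpin (WBGene00045359) at X:8600643-8600735 on the minus strand, and no annotated gene overlaps either. The closest annotated gene to mir-77 was the snoRNA T21B4.20, 51 bases away, and the closest to mir-799 was F18E9.1, 800 bases away. No other annotated miRNA hairpin lay within 10 kb of any of the 3.

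A miRNA hairpin yields a guide strand, which an Argonaute protein holds and uses to find target mRNAs, and a passenger strand, which is usually lost. Guides are stable as a rule, but some are destroyed when they pair extensively with particular targets, a process called target-directed miRNA degradation. EBAX-1 is the worm ortholog of ZSWIM8, the receptor of an E3 ubiquitin ligase that carries out this decay in mammals. In C. elegans the mir-35 family of the embryo is known to accumulate when EBAX-1 is missing. The 3 guides described here went in the opposite direction in L2 larvae.

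The libraries are small RNA sequencing libraries of whole worms. The time course has ebax-1(tm2321) mutants, a null allele, beside wild type, 2 libraries each, in early embryos, late embryos (6 h in M9 buffer after bleaching), unfed L1 larvae, and L2, L3, L4 and gravid adult worms 16, 28, 42 and 68 h after feeding, at 20 °C. Its last pair is germline-depleted adults at 25 °C, 48 h after feeding, in which ebax-1(tm2321); glp-4(bn2) was set beside glp-4(bn2), so both genotypes carry the glp-4 mutation and have few germ cells. The second null allele, ebax-1(ju699), was set beside its own wild type in unfed L1 larvae (2 libraries each), and a later experiment on L4 larvae combined ebax-1(tm2321) or the ebax-1 wild-type allele with wild-type mir-43 or with one of the mir-43 mutations M1, M2 and M3 (3 libraries each, and 2 of ebax-1 alone). M1 alters the seed of miR-43, and M2 and M3 alter its bases 9 to 23. From piRNA levels the study infers a second mutation in the ebax-1(tm2321) line that does not depend on ebax-1. The glp-4 and mir-43 double mutants were crossed from that line, and miRNA counts of ju699 cover L1 larvae only. Whether such a mutation bears on the 3 guides was not tested. The study calls the time course libraries of a group biological replicates, and the labels add nothing on separate cultures, so p-values measure the spread between these libraries. Fewer cells of a type and less of a miRNA in each cell cannot be told apart in libraries of whole worms.

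Libraries held between 302789 and 20538418 miRNA counts. The shallowest, at 302789, was ebax-1; mir-43(M3) replicate 2, and in the same experiment the libraries with replicate number 3 stood apart in mir-70, as described with that experiment. Levels are given in CPM, a strand's count scaled to the total of all miRNA counts in its library, so a rise in abundant miRNAs lowers the CPM of all others. In L1 larvae, for example, mir-35 to mir-42 and mir-43 together took up 152463 to 165500 CPM in ebax-1(tm2321), against 16622 to 17480 CPM in wild type. Fold changes come from edgeR with TMM scaling, which adjusts for such shifts, and a strand is called when its adjusted p is below 0.01 (below 0.05 for differences between fold changes and for strand ratios).

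In the L2 larvae that chose the miRNAs, mir-77 stood at 58.2 and 47.3 CPM in ebax-1(tm2321), against 553 and 511 CPM in wild type, a log2 fold change of -3.28 ± 0.25 (SE, n = 2 each). mir-799 stood at 9.77 and 5.63 CPM in ebax-1(tm2321), against 38.5 and 28.6 CPM in wild type (log2 fold change -2.06). mir-70 stood at 4663 and 5491 CPM in ebax-1(tm2321), against 10705 and 10432 CPM in wild type (fold change 0.499). All 3 were lower without overlap between the libraries, and by unequal amounts. Lower calls made up 1.92% of the 208 strands tested in L2 larvae, and 29.8% had both mutant libraries below both wild-type libraries. Those 4 lower calls were the 3 guides and mir-788-5p, so their share describes the selection and tests nothing about the guides. Their number changed in each fit without 1 library, which leaves 1 library in its group. It became 10 with the replicate number as a block and 15 when all time course libraries shared 1 fit. Just inside the threshold, beside mir-70, was mir-788-5p, with 742 and 414 CPM in ebax-1(tm2321) and 1525 and 2044 CPM in wild type. It belongs to the heat-responsive list and is not among the 3. Just outside were mir-1020* (13.6 and 17.9 CPM in ebax-1(tm2321), against 36.8 and 37.2 CPM in wild type) and mir-77*, the passenger strand of mir-77 (4.78 and 1.41 CPM in ebax-1(tm2321), against 16.6 and 10.9 CPM in wild type).

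In control worms the 3 guides were low in embryos and high late in development, but they climbed at different paces. mir-70 was already present at 2073 and 2190 CPM in early embryos. Its control level ran in the order early embryo, late embryo, L1, glp-4 adult, L2, L3, L4 and gravid adult, and neighbours in that order did not overlap except L4 (24223 to 25818 CPM) and gravid adult (24945 to 29845 CPM). mir-77 went through the widest range of the 3. It had 5.68 to 7.15 CPM in early embryos, 6.84 to 7.46 CPM in late embryos, 10.5 to 20.6 CPM in L1, 511 to 553 CPM in L2, 4685 to 5091 CPM in L3 and 14464 to 18340 CPM in L4. Gravid adults (9737 to 16274 CPM) overlapped L4 larvae, and glp-4 adults were highest at 25021 to 29094 CPM. In CPM mir-799 stayed the lowest of the 3 throughout. It was at 0.516 to 4.74 CPM before feeding, which is 1 to 23 counts in a library, and reached 28.6 to 38.5 CPM in L2, 64.2 to 70.8 CPM in L3, 103 to 145 CPM in L4 and 101 to 112 CPM in gravid adults. Its glp-4 adults (67.4 to 80.2 CPM) overlapped L3 larvae.

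**Figure D1:**
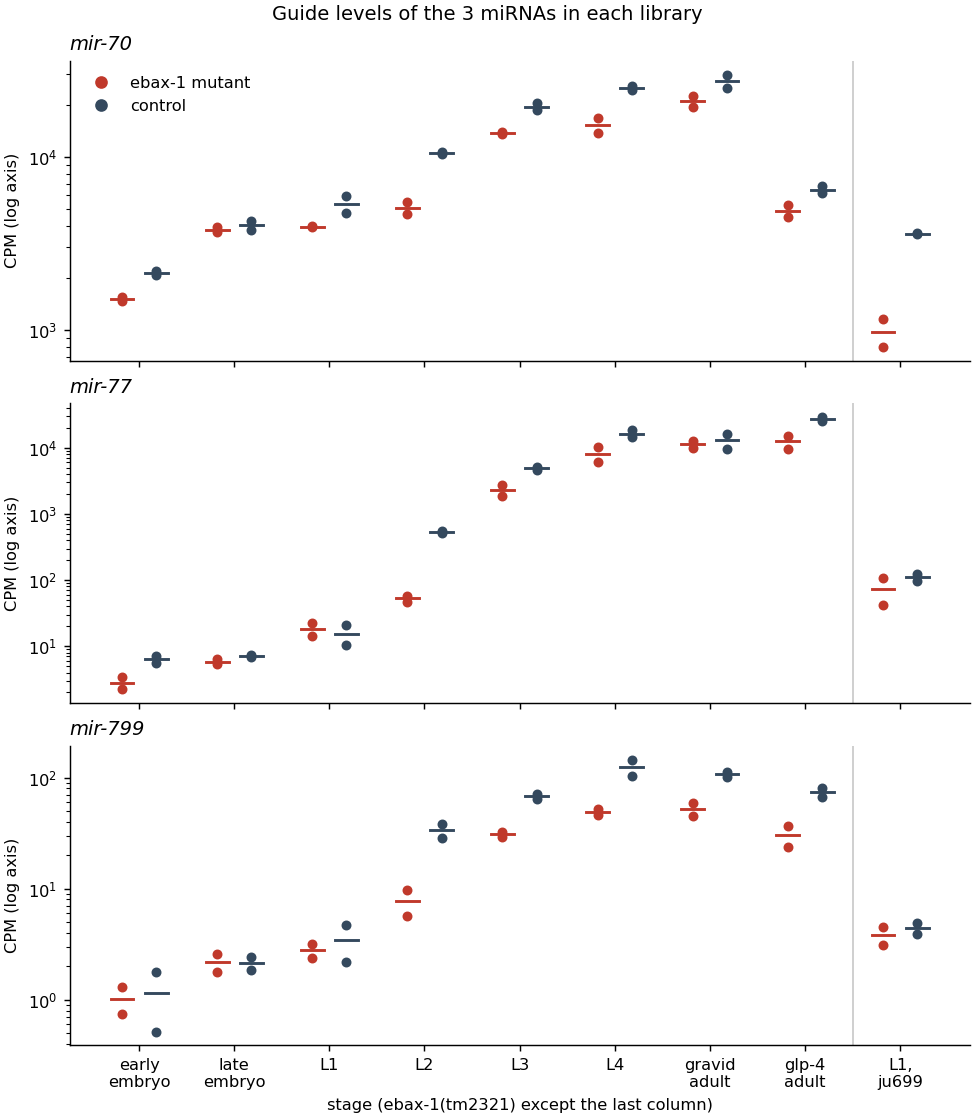
Level of each guide in CPM on a log axis by stage, with the ebax-1 mutant left and its control right, 1 point per library and a bar at the mean of 2. Both mutant points of mir-799 lie below both control points in L2, L3, L4 and both kinds of adult, while the points of mir-77 overlap in gravid adults and those of mir-70 overlap in late embryos.

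In ebax-1(tm2321) worms the order of stages differed from that of control worms only among stages whose libraries overlapped. The mutant mir-77 level was 1842 to 2770 CPM in L3, 6025 to 10348 CPM in L4, 9811 to 12736 CPM in gravid adults and 9692 to 15256 CPM in glp-4 adults, and the last 3 overlapped. For mir-70, glp-4 adults (4480 to 5261 CPM) overlapped L2 larvae (4663 to 5491 CPM), and L3 larvae (13499 to 13868 CPM) overlapped L4 larvae (13826 to 16766 CPM). For mir-799, L3 larvae overlapped glp-4 adults, and L4 larvae (46.1 to 52.4 CPM) overlapped gravid adults (45.4 to 59.5 CPM).

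Steps between stages that do not involve L2 were tested in 1 fit of the 32 time course libraries. From early to late embryo mir-70 rose in ebax-1(tm2321) by 1.40 on the log2 scale (edgeR adjusted p = 1.6e-05) and in wild type by 0.81 (edgeR adjusted p = 0.0055). Called strands made up 36.7% of 229 in ebax-1(tm2321) and 21% in wild type at that step. From late embryo to L1, mir-77 rose by 1.57 in ebax-1(tm2321) (edgeR adjusted p = 0.0021) and had a log2 fold change of 1.14 in wild type that did not pass (edgeR adjusted p = 0.0208), with 43.2% and 45.9% of strands called in the mutant and in wild type. From L3 to L4, mir-77 rose in both, by 1.93 in ebax-1(tm2321) and 1.71 in wild type (edgeR adjusted p = 2.6e-04 and 5.2e-04), where 10% of strands were called in ebax-1(tm2321) and 27.9% in wild type. Between L4 larvae and gravid adults none of the 3 guides passed in either genotype, beside 25.3% of strands called in ebax-1(tm2321) and 32.3% in wild type.

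mir-70 and mir-77 differed in opposite directions between the 2 kinds of adult. In glp-4 adults relative to gravid adults, mir-70 fell by 1.58 on the log2 scale among ebax-1(tm2321) worms and by 1.59 among ebax-1 wild-type worms (edgeR adjusted p = 2.7e-06 and 1.8e-06). mir-77 was higher by 1.49 among ebax-1 wild-type worms (edgeR adjusted p = 0.0013), and its log2 fold change of 0.70 among ebax-1(tm2321) worms did not pass (edgeR adjusted p = 0.0974). mir-799 did not pass in either genotype. Called strands made up 38% of 229 among ebax-1(tm2321) worms and 44.5% among ebax-1 wild-type worms. The study names mir-70 among small RNAs that other work had found to be germline-enriched. It reports these as strongly depleted in glp-4 worms with and without ebax-1. In the libraries compared here, glp-4 and gravid adults also differed in temperature, in age and in origin. The gravid adult libraries came from earlier work, and these differences cannot be told apart from the germline.

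Across the 16 control libraries of the time course, the guides with the profile most like mir-77 were mir-237, mir-48 and mir-241, with Pearson's r of log2(CPM + 1) of 0.990, 0.988 and 0.984. mir-237 is the sister of lin-4, and mir-48 and mir-241 belong to the let-7 family, all regulators of developmental timing. For mir-799 the closest were mir-77 (0.979), mir-237 (0.977) and mir-84 (0.970), another let-7 family member. For mir-70 they were mir-2210 (0.911), mir-79 (0.891) and mir-799 (0.880). The median r over the 143 guides compared was 0.28 for mir-77, 0.31 for mir-799 and 0.40 for mir-70. These coefficients describe 16 libraries that share 8 stages, so their points are not independent, and mir-2210 had at most 15.0 CPM in any of them.

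**Figure D2:**
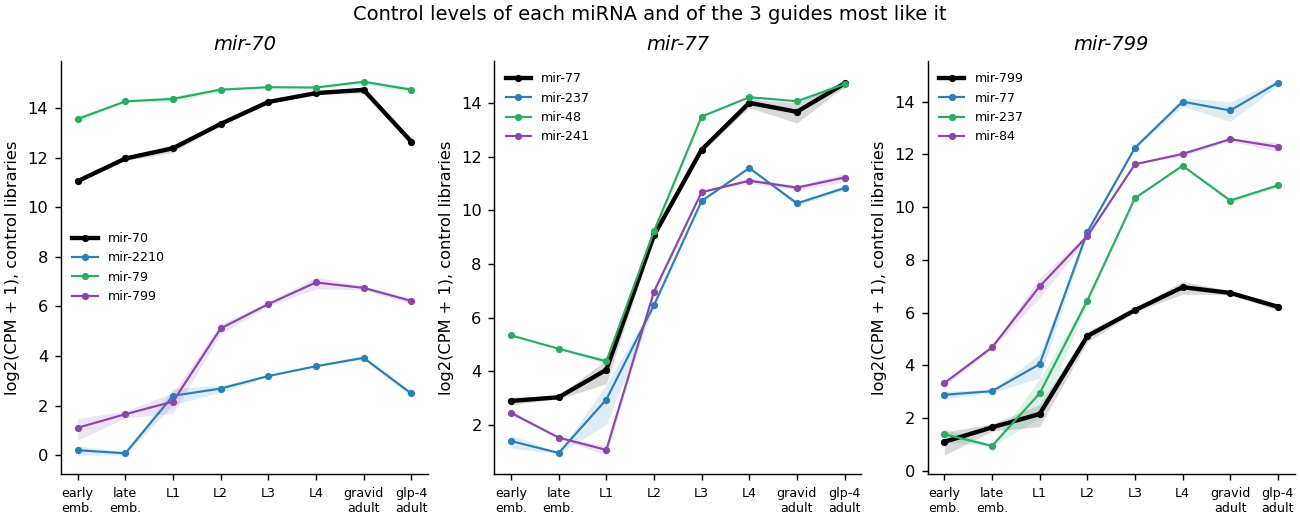
Control level of each miRNA (black) and of the 3 guides most like it, as log2(CPM + 1) at the mean of 2 libraries over 8 stages, with shading from the lower to the higher library. mir-77 climbs with mir-237, mir-48 and mir-241 between L1 and L3, whereas mir-70 is high in every stage and lower in glp-4 adults than in gravid adults.

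Before feeding, no ebax-1(tm2321) difference passed the test for any of the 3 guides. In early embryos mir-70 had 1555 and 1465 CPM in ebax-1(tm2321) and 2073 and 2190 CPM in wild type, a log2 fold change of -0.41 ± 0.13 (SE) that fell short of the threshold (edgeR adjusted p = 0.0108). With DESeq2 and with library size scaling it did pass (adjusted p = 0.0013 and 0.0021). mir-77 had 2.23 and 3.42 CPM in ebax-1(tm2321) embryos and 7.15 and 5.68 CPM in wild type, from 3 to 24 counts per library (log2 fold change -0.94, edgeR adjusted p = 0.0643). In early embryos 3.4% of strands were called lower and 38.8% had non-overlapping lower CPM.

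In late embryos both guides lay close to wild type. mir-70 had 3911 and 3681 CPM in ebax-1(tm2321), against 4236 and 3798 CPM in wild type, and its log2 fold change was 0.10 with TMM and -0.08 with library size scaling, so that its sign depends on the scaling. mir-77 had 6.38 and 5.37 CPM in ebax-1(tm2321), against 6.84 and 7.46 CPM in wild type (log2 fold change -0.11, 95% interval -0.47 to 0.25). Here 4.98% of strands were called lower but 65.2% had both mutant libraries below both wild-type libraries in CPM, so that non-overlap at this stage says little about single miRNAs.

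In unfed L1 larvae mir-70 had 3933 and 3985 CPM in ebax-1(tm2321), against 4749 and 5943 CPM in wild type (log2 fold change -0.25, 95% interval -0.55 to 0.05, edgeR adjusted p = 0.256). mir-77 overlapped between genotypes, with 22.4 and 14.4 CPM in ebax-1(tm2321) and 20.6 and 10.5 CPM in wild type (log2 fold change 0.45, 95% interval -0.45 to 1.35). At this stage 0.966% of strands were called lower and 53.1% had non-overlapping lower CPM. mir-799 was under the minimum for testing, a mean CPM + 1 of 5 over the controls, in both kinds of embryo and in these L1 larvae. It had 0.745 to 3.19 CPM in the 6 mutant libraries of these stages and 0.516 to 4.74 CPM in the 6 wild-type libraries, and the groups overlapped.

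In L3 larvae all 3 guides lay below wild type in every library, and mir-799 passed the test. mir-799 had 32.6 and 28.9 CPM in ebax-1(tm2321), against 70.8 and 64.2 CPM in wild type, and fell by 1.02 on the log2 scale (SE 0.12, edgeR adjusted p = 0.0054). Its call was lost when all time course libraries shared 1 fit (edgeR adjusted p = 0.0351). It was also lost without either wild-type library or without ebax-1(tm2321) replicate 2. Over the fits without 1 library its log2 fold change was -1.08 to -0.91. mir-77 had 2770 and 1842 CPM in ebax-1(tm2321), against 4685 and 5091 CPM in wild type, with a log2 fold change of -0.96 ± 0.20 (SE) that did not pass (edgeR adjusted p = 0.0281). mir-70 had 13868 and 13499 CPM in ebax-1(tm2321), against 18679 and 20358 CPM in wild type, with a log2 fold change of -0.39 ± 0.07 (SE) that did not pass either (edgeR adjusted p = 0.0185). Both passed with DESeq2 (adjusted p = 4.6e-06 for mir-77 and 2.7e-04 for mir-70) and in edgeR without the filter (adjusted p = 0.0053 for mir-77 and 0.0060 for mir-70). Of the 217 strands tested, 2.76% were called lower and 53.9% had both mutant libraries below both wild-type libraries. The number of lower calls, 6, changed in each fit without 1 library, which leaves 1 library in its group.

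In L4 larvae of the time course all 3 guides again lay below wild type, but no strand was called lower. mir-799 had 46.1 and 52.4 CPM in ebax-1(tm2321), against 103 and 145 CPM in wild type (log2 fold change -1.19 ± 0.31 SE, edgeR adjusted p = 0.0507). mir-77 had 10348 and 6025 CPM in ebax-1(tm2321), against 14464 and 18340 CPM in wild type (log2 fold change -0.86 ± 0.29 SE, edgeR adjusted p = 0.0960). Its log2 fold change was -1.35 without ebax-1(tm2321) replicate 1 and -0.49 without ebax-1(tm2321) replicate 2. mir-70 had 13826 and 16766 CPM in ebax-1(tm2321), against 25818 and 24223 CPM in wild type (log2 fold change -0.56 ± 0.16 SE, edgeR adjusted p = 0.0613). Both mutant libraries were below both wild-type libraries for each of the 3, as for 41.3% of the 223 strands. Calls of lower strands by edgeR were 0 (0%), with 37 at an unadjusted p under 0.05, and DESeq2 called 12, among them mir-799 (adjusted p = 0.0035).

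In gravid adults mir-70 and mir-799 lay below wild type in both libraries and mir-77 did not. mir-77 had 12736 and 9811 CPM in ebax-1(tm2321), against 9737 and 16274 CPM in wild type, and the libraries overlapped (log2 fold change -0.12, 95% interval -0.90 to 0.66). Its sign turned to 0.40 without wild-type replicate 2 and to 0.05 without ebax-1(tm2321) replicate 2. mir-70 had 22574 and 19351 CPM in ebax-1(tm2321), against 24945 and 29845 CPM in wild type (log2 fold change -0.29, edgeR adjusted p = 0.668). mir-799 had 45.4 and 59.5 CPM in ebax-1(tm2321), against 101 and 112 CPM in wild type (log2 fold change -0.91, 95% interval -1.78 to -0.04, edgeR adjusted p = 0.315). In gravid adults 0 strands (0%) were called lower by edgeR, 14 at an unadjusted p under 0.05, and 0 by DESeq2, while 33.6% had non-overlapping lower CPM.

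In glp-4 adults, which have few germ cells, all 3 guides were below their control in both libraries. mir-77 had 15256 and 9692 CPM in ebax-1(tm2321); glp-4(bn2), against 25021 and 29094 CPM in glp-4(bn2) (log2 fold change -1.07 ± 0.27 SE, edgeR adjusted p = 0.0669). mir-799 had 36.6 and 23.7 CPM in ebax-1(tm2321); glp-4(bn2), against 67.4 and 80.2 CPM in glp-4(bn2) (log2 fold change -1.25 ± 0.30 SE, edgeR adjusted p = 0.0667). mir-70 had 5261 and 4480 CPM in ebax-1(tm2321); glp-4(bn2), against 6754 and 6152 CPM in glp-4(bn2) (log2 fold change -0.37 ± 0.17 SE, edgeR adjusted p = 0.215). None passed with edgeR, which called 0 strands (0%) lower, 26 at an unadjusted p under 0.05, and 35% had non-overlapping lower CPM. DESeq2 called 7 lower, including mir-77 and mir-799 (adjusted p = 0.0075 and 0.0033). Fits without 1 library gave log2 fold changes of -1.41 to -0.74 for mir-77 and -1.57 to -0.93 for mir-799. Each leaves 1 library in a group, so no call is drawn from them.

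**Figure D3:**
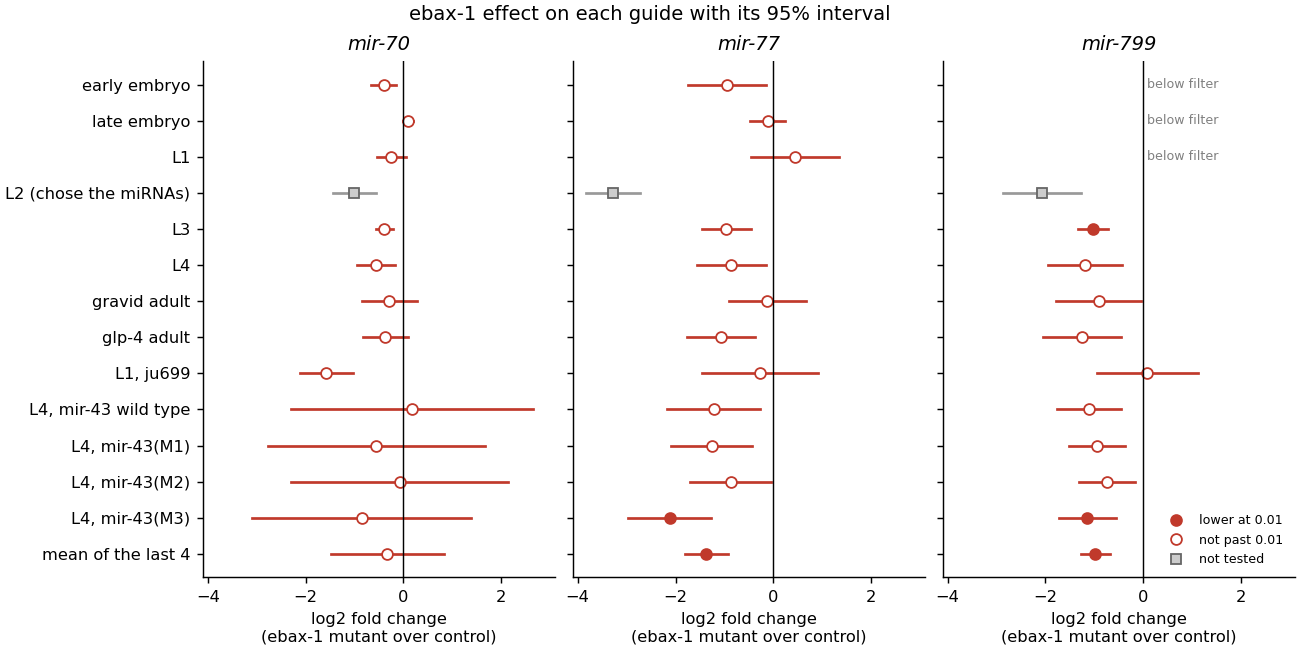
Log2 fold change of each guide, ebax-1 mutant over control, with its 95% interval, for 13 comparisons and the mean of the last 4. Filled circles passed the threshold of 0.01, open circles did not, and the grey squares are the L2 values that chose the miRNAs. Every mir-799 estimate in L3 larvae or later stages is below 0, that in ju699 L1 larvae is 0.09, and the wide mir-70 intervals belong to the mir-43 experiment.

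Whether the ebax-1(tm2321) difference varied over the 7 stages other than L2 was tested directly. It did for mir-70 (edgeR adjusted p = 0.0166) and, just inside the threshold of 0.05, for mir-77 (0.049976), as for 35.5% of the 228 strands tested. Neither held with library size scaling (edgeR adjusted p = 0.193 for mir-70 and 0.141 for mir-77) or without the filter (0.165 and 0.106). For mir-799 nothing is drawn from that test, since the guide was under the minimum for testing in 3 of the 7 stages. A difference between glp-4 and gravid adults in the size of the ebax-1 effect was not detected for any of the 3. The difference in log2 fold change, glp-4 minus gravid, was -0.84 for mir-77 (95% interval -1.94 to 0.27), -0.22 for mir-799 (-1.31 to 0.86) and 0.03 for mir-70 (-0.64 to 0.70), and 0.455% of 220 strands passed.

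With the second allele mir-70 was the guide whose libraries did not overlap between genotypes. In unfed L1 larvae mir-70 had 1161 and 798 CPM in ebax-1(ju699), against 3614 and 3562 CPM in wild type, a fold change of 0.336 (log2 fold change -1.58 ± 0.21 SE). It had the lowest fold change of the 215 strands tested, and fell short of the threshold with edgeR (adjusted p = 0.0135). It passed with DESeq2 (adjusted p = 4.8e-08) and without the filter (edgeR adjusted p = 7.7e-04). When 1 of the 4 libraries was left out, its log2 fold change was -1.86 to -1.34. Such a fit leaves 1 library in a group, so no call is drawn from it. edgeR called 0 strands (0%) lower, 8 at an unadjusted p under 0.05, DESeq2 called 2, and 48.8% of strands had non-overlapping lower CPM.

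mir-77 and mir-799 overlapped between genotypes in that experiment. mir-77 had 107 and 41.6 CPM in ebax-1(ju699), against 124 and 95.8 CPM in wild type (log2 fold change -0.27, 95% interval -1.46 to 0.93). mir-799 had 4.51 and 3.12 CPM in ebax-1(ju699), against 3.90 and 4.93 CPM in wild type, from 9 to 12 counts, and its log2 fold change was 0.09 with TMM and -0.21 with library size scaling. The wild-type L1 level of mir-77 differed between the 2 experiments, with 95.8 to 124 CPM beside ju699 and 10.5 to 20.6 CPM in the time course. So did those of mir-48 (136 to 159 CPM beside ju699, 18.0 to 21.2 CPM in the time course), let-7, mir-237 and mir-241. For lin-4 and mir-84 the wild-type libraries of the experiments overlapped. The cause was not tested.

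For mir-70 the 2 alleles differed by -1.34 in log2 fold change (ju699 minus tm2321, 95% interval -1.95 to -0.72), which did not pass with edgeR (adjusted p = 0.0769) and did with DESeq2 (adjusted p = 5.5e-04). For mir-77 the difference was -0.73 (95% interval -2.27 to 0.82), and 0.472% of 212 strands passed. Of the tissue markers, the intestinal mir-60-3p had 7821 to 9479 CPM in ju699 larvae, against 15742 to 17112 CPM in wild type (log2 fold change -0.62, edgeR adjusted p = 0.0693). The muscle miRNA mir-1 had 11845 to 12735 CPM in ju699 larvae, against 18627 to 20107 CPM in wild type (log2 fold change -0.36, edgeR adjusted p = 0.254). The neuronal pair summed to 4924 to 6151 CPM in ju699 larvae, against 6911 to 8172 CPM in wild type, and on the TMM scale mir-124 had a log2 fold change of -0.15 and mir-791-3p of 0.13 (edgeR adjusted p = 0.767 and 0.901). The glial mir-228 overlapped, with 15304 to 16198 CPM in ju699 larvae and 14529 to 16323 CPM in wild type (log2 fold change 0.33, edgeR adjusted p = 0.348). mir-35 to mir-42 with mir-43 summed to 125858 to 141007 CPM in ju699 larvae, against 10355 to 19991 CPM in wild type, which lowers the CPM of all other strands. Their part in the mir-70 value was not tested.

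In the mir-43 experiment 2 sets of libraries stood apart. In every library with replicate number 3, mir-70 was far below numbers 1 and 2 of the same genotype. Averaged over the 7 genotypes that have a number 3, mir-70 was 6.85 times lower there (log2 shift -2.78, between -3.07 and -2.23 in the single genotypes), and its passenger strand mir-70* 5.81 times lower. Of the 221 strands these were the largest downward shifts, and mir-239b, at -0.74, was the next among strands that all 8 genotypes carry. The shifts of mir-77 and mir-799 were 0.61 and 0.33 on the log2 scale. The ebax-1 strain with wild-type mir-43 has no number 3, so a plain comparison sets its mir-70 against controls that include 1 such library. The shallow library of ebax-1; mir-43(M3), replicate 2, held 1236 counts of mir-70, 310 of mir-77 and 16 of mir-799.

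Within each number, the lowest mir-70 level was in an ebax-1 library. With number 1 mir-70 had 10529 to 13175 CPM in the 4 ebax-1 libraries, against 13972 to 22265 CPM in the 4 libraries with wild-type ebax-1, without overlap. With number 3 it had 1433 to 1856 CPM in 3 ebax-1 libraries, against 1772 to 2359 CPM in 4 libraries with wild-type ebax-1. With number 2 it had 4082 to 13251 CPM in ebax-1 and 10838 to 16051 CPM with wild-type ebax-1, and the shallow library was lowest. The ranges of numbers 2 and 3 overlapped.

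The mean mir-70 difference over the 4 mir-43 backgrounds depended on how the numbers were treated. It was -0.33 ± 0.55 (SE) in log2 without a block (edgeR adjusted p = 0.650), -0.41 ± 0.12 with the replicate number as a block (edgeR adjusted p = 0.0090) and -0.44 ± 0.21 without all libraries of number 3 (edgeR adjusted p = 0.124). In the wild-type mir-43 background alone the log2 fold change was 0.18 without a block, -0.29 with it and -0.27 without number 3, so that its sign depends on the setting. The numbers deviated together in all 3 pairs of mir-43(M2) and of mir-43(M3), but not throughout in the other backgrounds.

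All ebax-1 libraries lay below their controls in mir-77 in each mir-43 background. mir-77 had 3787 and 3619 CPM in ebax-1, against 5266, 7943 and 15935 CPM in wild type. It had 2870, 4533 and 5182 CPM in ebax-1; mir-43(M1), against 11728, 9574 and 11824 CPM in mir-43(M1). It had 3783, 6162 and 6556 CPM in ebax-1; mir-43(M2), against 10100, 12537 and 10094 CPM in mir-43(M2). In none of these 3 backgrounds did the libraries overlap. It had 2285, 1024 and 3945 CPM in ebax-1; mir-43(M3), against 9511, 9323 and 14881 CPM in mir-43(M3), and fell by 2.12 on the log2 scale (SE 0.41, edgeR adjusted p = 8.2e-04). The call held when any 1 of these 6 libraries was left out (log2 fold change -2.67 to -1.76, and -1.76 without the shallow library). It was lost when the 6 libraries were fitted on their own (edgeR adjusted p = 0.0462). The other backgrounds did not pass on their own, with log2 fold changes of -1.22, -1.26 and -0.87 (edgeR adjusted p = 0.0571, 0.0348 and 0.142 for wild-type mir-43, M1 and M2). That for wild-type mir-43 was -0.70 without wild-type replicate 3, the library at 15935 CPM, and between -1.49 and -1.17 without any 1 of the other 4.

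mir-799 behaved likewise at a far lower level. It had 64.2 and 59.7 CPM in ebax-1, against 91.9, 185 and 168 CPM in wild type. It had 41.5, 72.1 and 71.8 CPM in ebax-1; mir-43(M1), against 90.8, 153 and 151 CPM in mir-43(M1). It had 63.1, 83.7 and 77.1 CPM in ebax-1; mir-43(M2), against 111, 153 and 141 CPM in mir-43(M2). Again no background showed overlap. It had 48.7, 52.8 and 86.3 CPM in ebax-1; mir-43(M3), against 136, 145 and 170 CPM in mir-43(M3), and fell by 1.14 (SE 0.28, edgeR adjusted p = 0.0060). That call was lost without the libraries of number 3 (edgeR adjusted p = 0.0313), without ebax-1; mir-43(M3) replicate 1 or 2 and without mir-43(M3) replicate 2 or 3 (edgeR adjusted p of 0.0101 to 0.0394). The other log2 fold changes were -1.10, -0.94 and -0.74 (edgeR adjusted p = 0.0197, 0.0225 and 0.0828 for wild-type mir-43, M1 and M2).

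**Figure D4:**
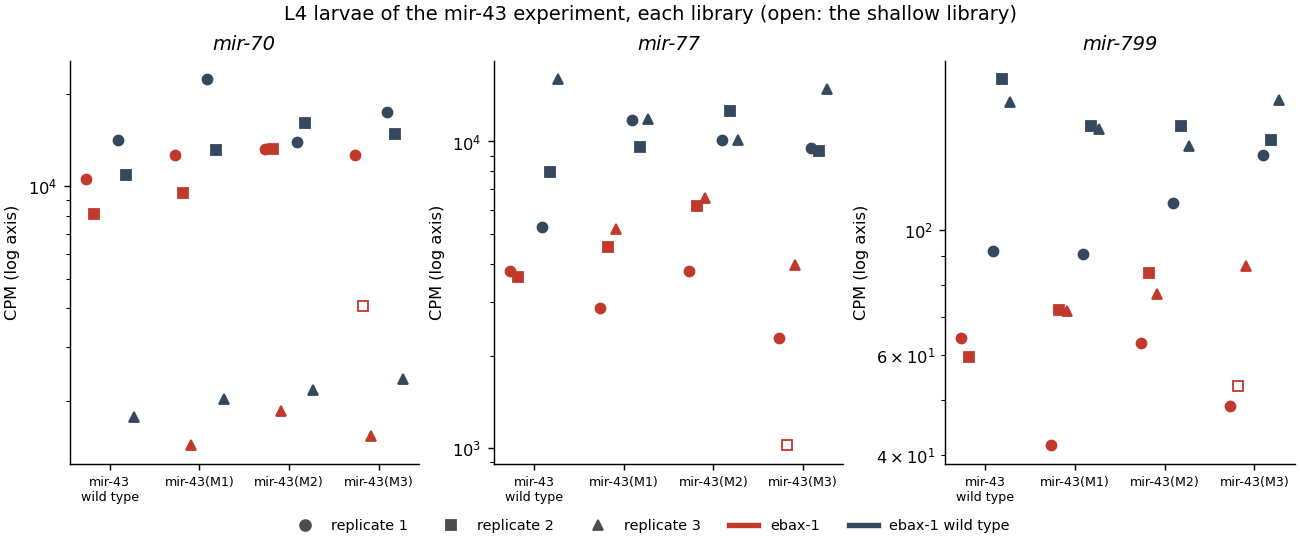
Level of each guide in CPM on a log axis in the 23 libraries of the mir-43 experiment, ebax-1 left and wild-type ebax-1 right in each background, with the replicate number as the symbol. Triangles, replicate number 3, form a separate low set for mir-70 only, and the red points of mir-77 and mir-799 stay below the dark ones in each background.

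Averaged over the 4 backgrounds, mir-77 fell by 1.37 on the log2 scale (fold change 0.387, SE 0.21, edgeR adjusted p = 2.7e-05) and mir-799 by 0.98 (fold change 0.507, SE 0.14, edgeR adjusted p = 1.9e-05). Leaving out any 1 of the 23 libraries kept both calls. With the libraries of number 3 left out, mir-77 fell by 1.39 and mir-799 by 1.02 (edgeR adjusted p = 1.0e-04 and 8.5e-04). These calls stand beside a high background, since 22.2% of 221 strands were called lower in the mean. In the single backgrounds 0.905% (wild-type mir-43), 2.71% (M1), 1.81% (M2) and 9.5% (M3) of strands were called lower, and with the replicate number as a block 13 strands were called lower in M2 in place of 4, and 32 in M3 in place of 21. Non-overlapping lower CPM was found for 35.3%, 29.4%, 37.6% and 24% of strands in the same order.

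The size of the ebax-1 difference was not shown to vary with mir-43. In the test of a difference over the 4 backgrounds the edgeR adjusted p was 0.981 for mir-77, 0.987 for mir-799 and 0.987 for mir-70, and edgeR called 0 (0%) of 221 strands, 5 at an unadjusted p under 0.05. The mir-43 mutations on their own, with wild-type ebax-1, did not move the guides past the threshold. Relative to wild type, mir-77 had log2 fold changes of 0.20, 0.20 and 0.29 and mir-799 of -0.19, -0.12 and 0.08 in M1, M2 and M3, with standard errors of 0.39 and 0.27, where 0.452%, 1.81% and 1.81% of strands were called. The L4 larvae of this experiment and those of the time course were not shown to differ either in the ebax-1 effect. The difference, mir-43 experiment minus time course, was -0.26 for mir-77 (95% interval -1.63 to 1.12) and 0.19 for mir-799 (-0.93 to 1.30), and edgeR called 0 (0%) of 225 strands, 12 lower and 7 higher at an unadjusted p under 0.05, while DESeq2 called 4 lower.

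The passenger strands come from the same hairpins as the guides, and the table holds them for mir-70 and mir-77 only. In early embryos mir-70* rose in the mutant, where the guide had a log2 fold change of -0.41. mir-70* had 58.1 and 56.2 CPM in ebax-1(tm2321), against 26.2 and 25.3 CPM in wild type, and rose by 1.23 on the log2 scale (SE 0.21, edgeR adjusted p = 6.2e-07). In all, 32 of the 206 strands tested in early embryos were called higher. The number of mir-70 guides per passenger, (CPM + 1) over (CPM + 1), was 26.3 and 25.6 in ebax-1(tm2321) embryos, against 76.1 and 83.3 in wild type. That ratio fell by 1.62 on the log2 scale (limma adjusted p = 6.0e-04). Many ratios changed at that stage, and 33.3% of 72 hairpins passed, all of them lower in the mutant.

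At the other stages tested the mir-70 ratio did not pass. Its log2 difference was -0.10 in late embryos, -0.07 in L1, -0.20 in L3, 0.16 in L4, -0.27 in gravid adults, -0.50 in glp-4 adults, -1.03 with ju699 (limma adjusted p = 0.104) and 0.30 in the mean of the mir-43 experiment (limma adjusted p = 0.110). Across hairpins, 23.6%, 25%, 18.2%, 18.5%, 2.5%, 12.9%, 15.7% and 34.2% passed in these 8 comparisons, in either direction. The ratio itself varied widely between stages. It was 34.9 and 37.9 in wild-type late embryos and 366 and 456 in wild-type L1 larvae, in which mir-70* fell by 3.18 on the log2 scale (edgeR adjusted p = 9.9e-10) while mir-70 had a log2 fold change of 0.42 that did not pass (edgeR adjusted p = 0.100). Gravid adults had 445 and 932 guides per passenger in wild type, and L4 larvae 104 and 110.

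In the L2 libraries that chose the guides, given here with no test, the ratio differed by -0.34 on the log2 scale for mir-70 and by -1.36 for mir-77.

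For mir-77 the passenger was scarce before feeding, with 0 to 3 counts in each of the 12 tm2321 and wild-type libraries. In L3 larvae mir-77* had 36.5 and 30.2 CPM in ebax-1(tm2321), against 42.7 and 23.3 CPM in wild type, so the strands overlapped while the guide did not. The guides per passenger were 73.8 and 59.1 in ebax-1(tm2321), against 107 and 209 in wild type (log2 difference -1.18 ± 0.36 SE, limma adjusted p = 0.0904), and with 5 CPM added in place of 1 the ratio passed (limma adjusted p = 0.0474). In the mir-43 experiment guide and passenger both fell, mir-77* by 0.99 on the log2 scale in the mean (SE 0.25, edgeR adjusted p = 0.0029), and their ratio differed by -0.32 (limma adjusted p = 0.179). mir-70* did not pass there (log2 fold change -0.42, edgeR adjusted p = 0.552).

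**Figure D5:**
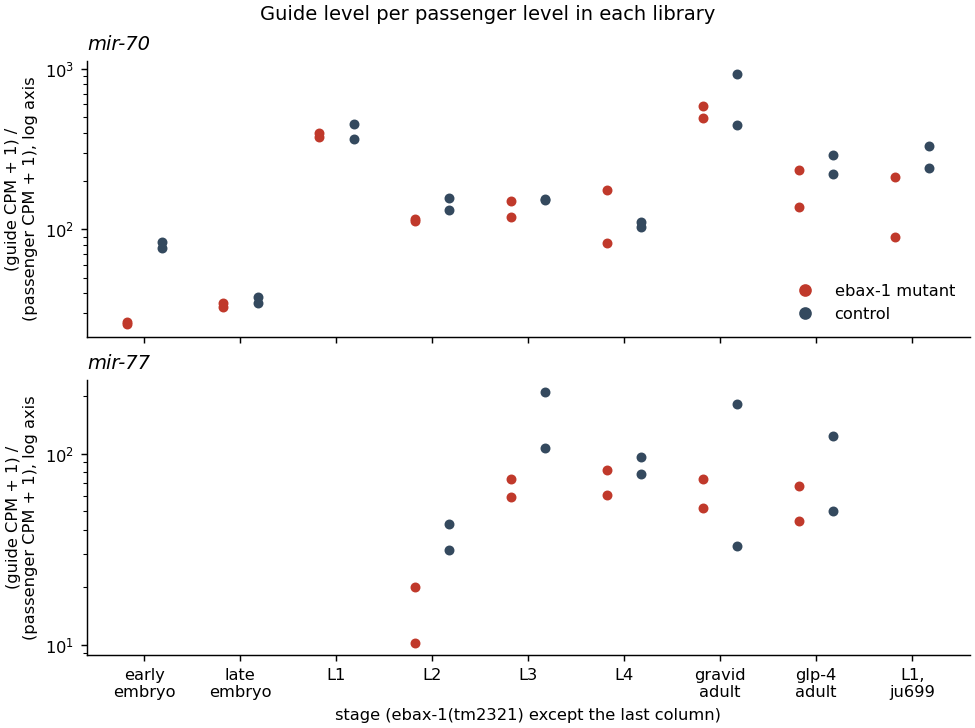
Guides per passenger, (guide CPM + 1) over (passenger CPM + 1), on a log axis in each library, with ebax-1 left and the control right, for mir-70 over all stages and for mir-77 from L2 on. The mir-70 points of early embryos are at 25.6 and 26.3 in ebax-1(tm2321) and between 76.1 and 83.3 in wild type, and those of late embryos lie close together.

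The levels of other miRNAs in the same libraries follow, and their part in the results was not tested. Of the 6 timing miRNAs (lin-4, mir-237, let-7, mir-48, mir-84 and mir-241), to which mir-77 was closest in profile, none was called in L3, L4 or either kind of adult. Their median log2 fold change was -0.21 in L3, 0.03 in L4, 0.09 in gravid adults and 0.23 in glp-4 adults, beside medians over all strands of -0.03, 0.01, 0.03 and 0.00. let-7, which rises late in larval life, had 259 and 183 CPM in ebax-1(tm2321) L3 larvae, against 328 and 678 CPM in wild type. In L4 larvae let-7 had 4900 and 7444 CPM in ebax-1(tm2321), against 11803 and 13700 CPM in wild type (log2 fold change -0.90, edgeR adjusted p = 0.0525). Of the 3 guides most like mir-77 in control worms, mir-237 had log2 fold changes of 0.28 in L3 and 0.15 in L4, mir-48 of -0.27 and 0.05, and mir-241 of -0.15 and 0.01. mir-48 had 9808 and 7739 CPM in ebax-1(tm2321) L3 larvae, against 11546 and 11462 CPM in wild type. In L2 larvae let-7 and mir-237 had log2 fold changes of 0.67 and 0.22. There lin-4, mir-48, mir-84 and mir-241 had -0.30, -0.76, -0.70 and -0.29. In early embryos lin-4 was called lower (-4.55, edgeR adjusted p = 5.1e-29), as for 3.4% of strands. In L1 larvae none of the list was called, and let-7 was under the minimum for testing. It had 70.4 and 28.9 CPM in ebax-1(tm2321) L1 larvae, against 2.89 and 3.05 CPM in wild type.

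The intestinal miRNA mir-60-3p fell by 0.52 in L3 larvae (edgeR adjusted p = 0.0084), with 15777 and 15641 CPM in ebax-1(tm2321) against 23418 and 25857 CPM in wild type. In L2 larvae it had 2867 and 12699 CPM in ebax-1(tm2321), against 18892 and 18355 CPM in wild type. In L4 larvae it had 13103 and 19655 CPM in ebax-1(tm2321), against 25263 and 26858 CPM in wild type (log2 fold change -0.52, edgeR adjusted p = 0.166), and in glp-4 adults 19946 to 23280 CPM in ebax-1(tm2321); glp-4(bn2), against 25030 to 28732 CPM in glp-4(bn2) (log2 fold change -0.28, edgeR adjusted p = 0.166). It overlapped in gravid adults (log2 fold change -0.32). In the mean of the mir-43 experiment its log2 fold change was -0.39 (edgeR adjusted p = 0.0366). The muscle miRNA mir-1 did not pass in L3 or L4 larvae or in either kind of adult, with log2 fold changes between -0.15 and 0.18. The glial miRNA mir-228 rose by 0.60 in the mean of the mir-43 experiment (edgeR adjusted p = 8.6e-06), and of the neuronal pair mir-124 had -0.18 there and mir-791-3p 0.56 (edgeR adjusted p = 0.324 and 0.0213).

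Calls of higher strands made up 8.29% of all strands tested in L3, 5.38% in L4, 0.448% in gravid adults, 5.83% in glp-4 adults and 16.3% in the mean of the mir-43 experiment. The study names mir-70 too among germline-enriched small RNAs, but the germline and embryo list here leaves it out. mir-70 had log2 fold changes of -0.39 in L3, -0.56 in L4, -0.29 in gravid adults and -0.37 in glp-4 adults, none called. Of the list, mir-35 to mir-42 with mir-43, 9 of 9 strands were called higher in L3 and L4 larvae, 0 in gravid adults, 5 in glp-4 adults and 7 in the mean of the mir-43 experiment. The strands not called in adults were not level with control. Log2 fold changes over the list were 1.30 to 2.24 in gravid adults and 3.45 to 4.57 in glp-4 adults. In gravid adults the list summed to 48739 to 121195 CPM in ebax-1(tm2321), against 23481 to 37526 CPM in wild type. In the mean of the mir-43 experiment the other strands, mir-42 and mir-43, had log2 fold changes of -1.53 and -1.40 (edgeR adjusted p = 0.0356 and 0.307). Those means join unlike backgrounds, in an experiment where mir-43 itself was mutated. With wild-type mir-43, M1, M2 and M3 in turn, mir-42 had 1.76, 1.24, -3.73 and -5.40. Some mir-42 levels were near the floor. With replicate numbers 1, 2 and 3, the lowest over the backgrounds was 0.175, 2.80 and 0 CPM among ebax-1 libraries. Among libraries with wild-type ebax-1 it was 1.36, 5.15 and 29.4 CPM. A separate strand, mir-42_g8t, exists in this experiment only and is not part of these values. For mir-43 the values were 2.71, -5.18, -2.85 and -0.29. The negative means are therefore not read as a fall on ebax-1 loss.

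Of the heat list (mir-230, mir-239b, mir-247, mir-788-5p and mir-797), 1 of 5 was called higher in L3, 2 in L4, 1 in gravid adults, 4 in glp-4 adults and 4 in the mean of the mir-43 experiment. The study named these 5 as heat-responsive miRNAs that were elevated on EBAX-1 loss. The list was thus taken from the outcome counted here, and the counts are no test of heat. The list did not move one way in L3 larvae, where mir-230 and mir-239b had log2 fold changes of 0.49 and 0.84 and mir-247, mir-788-5p and mir-797 of -0.81, -0.46 and -0.58, and mir-788-5p was called lower in L1 (-0.82, edgeR adjusted p = 0.0035). Of mir-71 and mir-235, which change with feeding, both were called higher in L3 larvae and in the mean of the mir-43 experiment, and mir-71 alone in L4. The study calls mir-71 EBAX-1 sensitive from L2 to L4, so its calls are no test of feeding. In earlier stages mir-235 had log2 fold changes of -0.60 in L1 and -0.86 in L2, and mir-71 of 0.13 and 2.74. Late embryos had both called higher, at 0.32 for mir-235 and 0.92 for mir-71 (edgeR adjusted p = 3.9e-04 and 3.1e-08), as for 27 of 201 strands. In early embryos mir-71 was called higher (0.43, edgeR adjusted p = 0.0085), as for 32 of 206 strands, and mir-235 had 0.01.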

How the data were processed

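The deposited values are read counts per miRNA strand in 59 libraries. As the methods describe, the authors trimmed reads with cutadapt and fastx_trimmer, filtered them on base quality, matched the first 19 nt to a curated dictionary and removed spike-in counts, so that levels are relative within a library. The submitters' processing notes name cutadapt and DESeq2, tool versions are not given in the sources used here, and mir-43 libraries were sequenced on another instrument than the time course. Of the 310 strands, 7 exist in the mir-43 experiment only. piRNA counts were not used here.

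The test was the quasi-likelihood fit of edgeR 4.0.16 in R 4.3.3, with TMM scaling and Benjamini-Hochberg adjustment over all strands tested. A strand entered when its CPM + 1, averaged over control libraries, reached 5. Each stage was fitted on its 4 libraries, the mir-43 experiment as 8 groups, and differences between effects as interactions. Strand ratios were tested with limma 3.58.1 on log2((guide CPM + 1)/(passenger CPM + 1)). Standard errors and 95% intervals of fold changes come from the fold change and its F statistic. DESeq2 1.42.0, library size scaling, no filter, other pseudocounts, fits with more or fewer libraries, leaving out each library and the replicate number as a block were the alternatives. The fits were tested on simulated counts. Tables and figures were made in Python 3.11.15 with numpy 2.4.6, pandas 2.3.3 and matplotlib 3.10.9, and positions are from the Ensembl annotation of WBcel235, the build that the submitters' processing notes name.

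The 3 miRNAs and the lists were chosen with earlier results of these data known. Genes named are the 3 guides and their passengers, the 3 guides most like each, the strands at the L2 threshold and members of the lists. T21B4.20 and F18E9.1, and mir-239b beside replicate number 3, were named after their values were seen. No replicates were copies of each other. Of the mir-43 backgrounds, only in M2 and M3 did all 3 same-numbered pairs have a correlation of deviations over 0.1 across strands. That link rests on the counts and not on a stated batch. The reported tests did not use it, in M2 and M3 either, and the replicate number as a block was run only as an alternative.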

Additional observations from a re-analysis of the deposited data

Results flagged for a closer look

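The ebax-1(tm2321) difference was found to vary over the 7 stages other than L2 for mir-70 and mir-77, by a test of the difference itself in 1 fit of 28 libraries, with an edgeR adjusted p of 0.0166 for mir-70 and 0.049976 for mir-77, beside 35.5% of the strands tested. The same test gave 0.0423 for mir-799, from which nothing is drawn, since mir-799 was under the minimum for testing in early embryos, late embryos and L1 larvae and entered the fit through the later stages. The stage estimates ran from -0.56 in L4 to 0.10 in late embryos for mir-70, from -1.07 in glp-4 adults to 0.45 in L1 for mir-77, and from -1.25 in glp-4 adults to -0.91 in gravid adults for the stages in which mir-799 was tested on its own. Neither mir-70 nor mir-77 held with library size scaling or without the filter.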

How the results depend on the processing

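Over the alternatives run, 405 values that answer a comparison kept their direction and side of the threshold, 39 passed it where the reported one did not, 18 no longer passed and 26 turned in sign. For none of these changes was the cause tested. The alternatives for the mir-43 forms, the stage steps and the stage difference, the fits without replicate number 3 and the crossed numbers were chosen after seeing the data.

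DESeq2 brought past the threshold mir-70 in early embryos (-0.41), L3 (-0.36), ju699 L1 (-1.58) and the allele difference (-1.36), mir-77 in L3 (-0.94) and glp-4 adults (-1.09), and mir-799 in L4 (-1.17), glp-4 adults (-1.27), wild-type mir-43 (-1.08) and M1 (-0.97). Library size scaling did so for mir-70 in early embryos (-0.50) and L3 (-0.51). Leaving out the filter did so for mir-70 in L3 (-0.42), ju699 L1 (-1.61) and the allele difference (-1.30) and for mir-77 in L3 (-0.99), and ended the call of mir-799 in M3 (-1.15). With all time course libraries in 1 fit mir-799 lost its L3 call (-0.99) and gained one in glp-4 adults (-1.25). With only the libraries of a background, mir-77 passed in M1 (-1.33) and no longer in M3 (-2.10), and neither did mir-799 in M3 (-1.12). Without replicate number 3 mir-799 in M3 no longer passed (-1.33).

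With the replicate number as a block, mir-70 passed in L3 (-0.39), ju699 L1 (-1.60) and the mir-43 mean (-0.41), mir-77 in L3 (-0.99) and M1 (-1.30), and mir-799 in wild-type mir-43 (-0.95) and M1 (-0.95), and mir-70 in wild-type mir-43 turned to -0.29. The labels link libraries by a number only, and only in M2 and M3 did all 3 pairs deviate together. Still, mir-70 was low in every library of number 3 in the mir-43 experiment. In M1 the same-numbered libraries had r of 0.379, 0.014 and 0.442 for numbers 1, 2 and 3. Same-numbered libraries deviated in opposite ways in early embryos (r = -0.237) and L3 (r = -0.439), where crossed numbers gave 18 and 1 lower calls. They deviated together in gravid adults (r = 0.461), ju699 L1 (r = 0.247) and time course L1 (r = 0.232). In the other time course stages r lay between -0.065 and 0.087. The block moved the count of lower calls from 4 to 10 in L2, 6 to 25 in L3, 2 to 14 in L1, 10 to 6 in late embryos, 7 to 3 in early embryos, 2 to 9 in wild-type mir-43 and 6 to 21 in M1.

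The following turned in sign, none past a threshold: with library size scaling mir-70 in late embryos (-0.082) and glp-4 minus gravid (-0.020), mir-799 in ju699 L1 (-0.21), mir-70 from late embryo to L1 in ebax-1(tm2321) (0.061) and mir-799 from L4 to gravid adult in ebax-1(tm2321) (0.093); with DESeq2 mir-70 in glp-4 minus gravid (-0.14), mir-77 from early to late embryo in wild type (-0.17) and mir-799 from L4 to gravid adult in ebax-1(tm2321) (0.074); without the filter mir-70 in glp-4 minus gravid (-0.12) and mir-799 from L4 to gravid adult in wild type (0.090); without replicate number 3 mir-70 in wild-type mir-43 (-0.27); with the block mir-77 in the L4 experiment difference (0.25). The stage difference was lost with library size scaling (adjusted p = 0.193 for mir-70, 0.141 for mir-77 and 0.149 for mir-799) and without the filter (0.165, 0.106 and 0.154).

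Where a group held 2 libraries, leaving 1 out left that group no spread of its own, so nothing is drawn from calls gained there. Leaving out 1 library at a time changed a call or a sign within these ranges of log2 fold change. For mir-70 they were -0.45 to -0.32 in L3, -1.86 to -1.34 in ju699 L1, -0.30 to 0.73 in wild-type mir-43, -1.08 to 0.22 in M1, -0.56 to 0.38 in M2, -1.63 to -1.09 in the allele difference and -0.28 to 0.21 in glp-4 minus gravid. For mir-77 they were -0.22 to 0.011 in late embryos, -1.25 to -0.68 in L3, -0.48 to 0.40 in gravid adults, -1.41 to -0.74 in glp-4 adults, -1.09 to 0.26 in ju699 L1 and -0.62 to 0.15 in the L4 experiment difference. For mir-799 they were -1.08 to -0.91 in L3, -1.57 to -0.93 in glp-4 adults, -0.18 to 0.34 in ju699 L1, -1.33 to -0.91 in wild-type mir-43, -1.49 to -0.96 in M3 and -0.20 to 0.35 in the L4 experiment difference. For the forms M1, M2 and M3 over wild-type mir-43 they were -0.32 to 1.01, -0.22 to 0.80 and -0.11 to 0.96 for mir-70, -0.074 to 0.71 and -0.069 to 0.72 (M1, M2) for mir-77, and -0.41 to 4.1e-05, -0.34 to 0.069 and -0.15 to 0.25 for mir-799. For the ratios they were -0.80 to 0.27 in gravid adults, -0.23 to 0.082 in L1 and -0.38 to 0.71 in L4 for mir-70, and -1.56 to 0.91 in gravid adults and -1.18 to 0.13 in glp-4 adults for mir-77.

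Library size scaling moved the median of all strands to -0.19 in late and -0.14 in early embryos, -0.20 in L1, -0.16 in L3, -0.13 in L4, -0.31 in ju699 L1 and -0.20 in wild-type mir-43. The split of calls became 13 lower and 21 higher in place of 7 and 32 in early embryos, 66 and 21 in place of 10 and 27 in late embryos, 6 and 14 in place of 2 and 15 in L1, 9 and 13 in place of 6 and 18 in L3, 7 and 10 in place of 2 and 10 in wild-type mir-43, and 60 and 25 in place of 49 and 36 in the mir-43 mean. For glp-4 over gravid adults it became 55 and 31 in place of 31 and 56 in ebax-1(tm2321) worms and 74 and 32 in place of 41 and 61 in ebax-1 wild-type worms. DESeq2 called 13 strands lower in L3, 9 in L1, 23 in wild-type mir-43 and 16 in M1, and 1 fit of all time course libraries called 15 in L2, 2 in L3, 11 in L4, 3 in gravid adults, 10 in glp-4 adults, 1 in early and 0 in late embryos. Leaving out the filter gave 12 in L3. With only the libraries of a background the lower calls were 17 in M1 and 0 in both M2 and M3, and without replicate number 3 they were 0 in wild-type mir-43, 1 in M1, 0 in M2 and 9 in M3. The low counts of mir-799 before L2, and of mir-77 in embryos, limit what could be detected there.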
